A study of Homo sapiens with 2 samples.

Results

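The genes described here are the 5 EPHB receptors EPHB1, EPHB2, EPHB3, EPHB4 and EPHB6 and the 3 ephrin B ligands EFNB1, EFNB2 and EFNB3, 8 of the 19881 protein-coding genes examined. They were taken by family name and not by a measured value, but earlier results of these data were known when they were chosen. OTX2 peaks were assigned to a gene when they overlapped its GENCODE record in GRCh38 or the 50 kb on either side of it. By this rule 63 of the 137412 deposited peaks belonged to the 8 genes. The peaks came from OTX2-expressing control tumorspheres of D283, labelled as having no treatment, that is, from free-floating spheres of an established medulloblastoma cell line grown with EGF and bFGF. There was 1 chromatin immunoprecipitation (ChIP) library made with an OTX2 antibody and 1 input library of sheared chromatin without antibody, so no value has a replicate error and binding was not compared between conditions. After the authors removed duplicates, 61259377 fragments remained in the ChIP library and 22521186 in the input library.

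EPHB receptors are receptor tyrosine kinases of the cell surface, and ephrin B ligands are transmembrane proteins on the neighbouring cell. Contact between them signals in both directions, forward into the cell with the receptor and reverse into the cell with the ligand, and often makes growth cones or migrating cells turn away. In the developing nervous system the family is known for axon guidance, for boundaries between tissue compartments and for synapse formation. OTX2 is a homeodomain transcription factor of the anterior brain, and the study asked whether it acts on axon guidance genes directly.

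OTX2 peaks lay close to the transcription start site (TSS) of 5 of the 8 genes, EPHB1, EPHB3, EPHB6, EFNB1 and EFNB2, and were absent there from EPHB2, EPHB4 and EFNB3. Near the TSS here means that at least 1 bp of the peak fell between 5 kb upstream and 2 kb downstream of the 5′ end of the gene record, the window the study used. Among all protein-coding genes 57.2% had such a peak, close to the 62.5% of the 8 genes. When only peaks enriched 5-fold or more were counted, the background was 38.5% and EPHB1 and EPHB3 were the only members left, 2 of the 8. The peaks near the TSS were mostly weak. The tallest peaks of all 8 genes lay elsewhere, in introns or outside the gene. For EPHB2, EPHB4 and EFNB3 this had to be so, as they had no peak near the TSS. Such peaks were few in general: 7 of the 63 at the 8 genes lay near their TSS. On all chromosomes 15107 of 137330 peaks lay near a protein-coding TSS.

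Reference promoter sequences in GRCh38 (RefSeq) were matched for 7 of the 8 genes, all but EFNB3. The 250 bases before the TSS are shown for the 4 promoters that an OTX2 peak covered, with the bases inside the peak in capitals, and for EPHB2 and EPHB4, which had none. Each is written 5′ to 3′ on the strand of the gene. They lie at chr3:134795010-134795259 on the plus strand for EPHB1, chr3:184561535-184561784 on the plus strand for EPHB3, chrX:68828771-68829020 on the plus strand for EFNB1 and chr13:106535663-106535912 on the minus strand for EFNB2. Those without a peak lie at chr1:22710588-22710837 on the plus strand for EPHB2 and chr7:100827524-100827773 on the minus strand for EPHB4.
EPHB1: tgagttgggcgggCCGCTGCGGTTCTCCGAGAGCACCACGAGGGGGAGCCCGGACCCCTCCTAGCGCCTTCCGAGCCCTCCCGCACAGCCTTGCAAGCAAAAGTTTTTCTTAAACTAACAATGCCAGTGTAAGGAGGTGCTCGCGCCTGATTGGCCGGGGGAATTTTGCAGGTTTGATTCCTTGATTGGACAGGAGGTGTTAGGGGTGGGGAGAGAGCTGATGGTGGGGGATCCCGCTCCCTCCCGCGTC
EPHB3: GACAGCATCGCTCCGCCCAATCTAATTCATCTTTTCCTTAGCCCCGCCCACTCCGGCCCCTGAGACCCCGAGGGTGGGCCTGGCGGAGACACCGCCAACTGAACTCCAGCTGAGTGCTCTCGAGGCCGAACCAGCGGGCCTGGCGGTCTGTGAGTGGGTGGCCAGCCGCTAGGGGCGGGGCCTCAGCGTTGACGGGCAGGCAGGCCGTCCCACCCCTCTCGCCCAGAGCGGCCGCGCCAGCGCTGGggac
EFNB1: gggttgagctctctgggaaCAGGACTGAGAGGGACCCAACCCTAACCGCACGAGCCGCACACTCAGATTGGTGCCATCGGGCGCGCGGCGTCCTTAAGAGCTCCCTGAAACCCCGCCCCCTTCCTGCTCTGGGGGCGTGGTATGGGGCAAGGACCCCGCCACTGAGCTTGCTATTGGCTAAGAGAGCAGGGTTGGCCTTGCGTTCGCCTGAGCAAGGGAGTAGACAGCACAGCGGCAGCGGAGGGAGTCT
EFNB2: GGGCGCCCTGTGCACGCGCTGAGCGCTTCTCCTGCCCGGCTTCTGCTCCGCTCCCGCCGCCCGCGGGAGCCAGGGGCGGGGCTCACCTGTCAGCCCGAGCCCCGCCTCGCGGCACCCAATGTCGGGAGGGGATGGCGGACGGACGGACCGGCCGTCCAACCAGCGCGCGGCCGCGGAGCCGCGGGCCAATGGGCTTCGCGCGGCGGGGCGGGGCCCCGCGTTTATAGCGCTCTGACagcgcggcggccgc
EPHB2: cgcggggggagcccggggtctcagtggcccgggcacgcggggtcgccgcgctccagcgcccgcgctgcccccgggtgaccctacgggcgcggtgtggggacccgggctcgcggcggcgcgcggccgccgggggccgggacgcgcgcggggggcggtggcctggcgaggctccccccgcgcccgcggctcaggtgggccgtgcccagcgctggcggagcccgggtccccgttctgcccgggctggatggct
EPHB4: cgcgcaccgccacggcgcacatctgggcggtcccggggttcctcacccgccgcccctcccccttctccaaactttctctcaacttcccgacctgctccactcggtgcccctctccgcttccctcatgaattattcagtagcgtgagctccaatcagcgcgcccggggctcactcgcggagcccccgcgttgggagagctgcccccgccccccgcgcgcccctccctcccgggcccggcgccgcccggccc

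The peak covered 237 of the 250 bases at EPHB1, 246 at EPHB3, 231 at EFNB1 and 236 at EFNB2. At EPHB1, EFNB1 and EFNB2 the summit, the point of highest coverage, fell inside the printed stretch, at 122, 72 and 167 bp upstream of the TSS. At EPHB3 it fell just beyond it, at 301 bp. The OTX2 motifs TAATCC and TAATCT, searched on both strands over the 300 bases from 250 before to 50 after the start, occurred in 0 of the 7 promoters. Over the same length 12.8% of all 35116 promoters and 10.6% of 22198 protein-coding promoters held at least 1 of them. The shorter homeodomain core TAAT, which both motifs contain, occurred once in each of 3 of the 7 promoters. It occurred in 50.2% of all promoters and in 42.7% of protein-coding promoters. In the EPHB3 promoter it began 228 bp upstream of the TSS, inside the peak, and was followed by the letters TC (TAATTC). The EPHB4 promoter held TAATTC on the opposite strand and the EPHB6 promoter TAATGA, neither of them under a peak. The EPHB6 window belongs to a start 7695 bp inside the gene. The sequence at the peak near the EPHB6 TSS was therefore not searched. A match of letters is a description of the window and does not show a bound site, and these windows leave out most bases under the 63 peaks.

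The promoters also differed in base composition. GC content over the 300 bases was 83.0% at EPHB2, higher than in 99.3% of all promoters, 78.7% at EFNB2 and 74.3% at EPHB4. It was 69.0% at EPHB3, 63.7% at EFNB1 and 61.3% at EPHB1, against a median of 62.3% over protein-coding promoters. EPHB2 and EFNB2 each held 49 CpG dinucleotides, where the protein-coding median was 21. EFNB2 thus had a peak over a promoter of this kind and EPHB2 had none. The other covered promoters, of EPHB1, EPHB3 and EFNB1, held 19, 26 and 18 CpG, and that of EPHB4, without a peak, held 36. Whether CpG content goes with a peak was not tested. The promoter given for EPHB6 had 48.0% GC and 3 CpG, and it starts 7695 bp downstream of the GENCODE gene start used for the peaks.

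**Figure D1:**
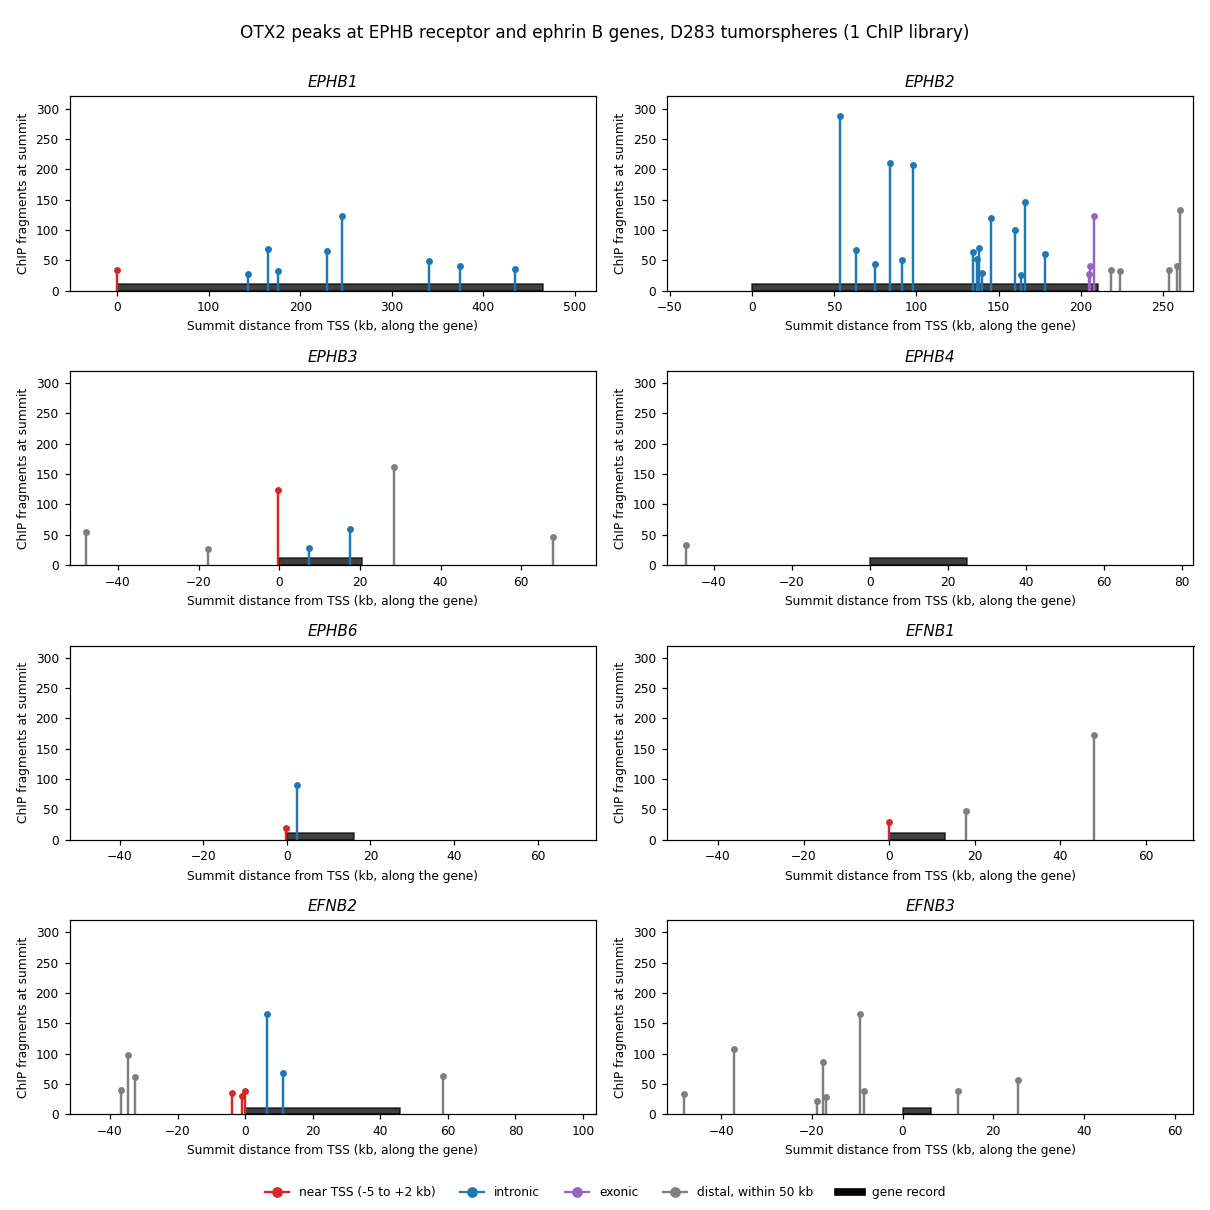
Each panel shows 1 gene, with the distance of every peak summit from the TSS in kb on the x axis, positive values pointing into the gene, and the number of ChIP fragments at the summit on the y axis. Black bars are the gene records. EPHB2 carries peaks of 207 to 288 fragments in its introns and none near its TSS, whereas EPHB4 has 1 peak of 34 fragments at the edge of its window.

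Heights are given below as ChIP fragments at the summit, read back from the deposited pileup by taking its smallest step as 1 fragment, with exact Poisson 95% intervals that cover counting error only. Fold enrichment is the authors' value, the pileup plus 1 over the local input plus 1. Over the whole list the median peak had 53 fragments and a fold enrichment of 6.10. The 63 peaks had a median of 51 fragments, from 19 to 288, and a median fold of 6.54, from 2.79 to 35.5. Peaks of at least 100 fragments made up 15 of the 63, or 23.8%, against 23.4% of all peaks. At 35 of the 63 peaks the local input stood at its floor of 3.99, taken as the lowest background the peak caller used. This is a larger share than the 32.9% of all peaks. At the floor the fold follows the height almost alone. The median fold of 6.54 against 6.10 came with this share, at a median height of 51 against 53 fragments. The part of the floor in the median fold was not tested. As a group, the 8 genes therefore had peaks of ordinary height, and the differences lay among the genes.

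By position, 7 of the 63 peaks lay near the TSS, 28 had their summit in an intron, 3 in an exon and 25 outside the gene record, 13 of them upstream and 12 downstream. The 5 receptor genes held 42 peaks and the 3 ligand genes 21. Of the receptor peaks 26 were intronic and 10 distal, while of the ligand peaks 2 were intronic and 15 distal. Gene length differed along with this split. The long receptor genes EPHB1 (465 kb) and EPHB2 (211 kb) held 8 and 15 intronic peaks, while the ligand records span 6.17 to 45.9 kb. The shorter receptor genes EPHB3, EPHB4 and EPHB6 had 2, 0 and 1 intronic peaks and 4, 1 and 0 distal ones. Whether receptors and ligands differ apart from gene length was not tested. EPHB2 accounted for 15 of the 28 intronic peaks, and EFNB2 for 3 of the 7 near a TSS. The median fold was 3.61 for the peaks near the TSS, 8.39 for intronic peaks, 5.80 for upstream and 6.47 for downstream distal peaks. These medians lean on single genes. The 3 EFNB2 peaks near the TSS had folds of 3.61, 2.79 and 3.43, and those of EPHB1, EPHB3, EPHB6 and EFNB1 had 5.05, 8.38, 3.00 and 4.62. Without EPHB2, the remaining 40 peaks of all positions had a median fold of 5.94. Medians by position were not taken without single genes. Over all chromosomes the peaks near a protein-coding TSS had a median fold of 5.31 and the other peaks 6.25.

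**Figure D2:**
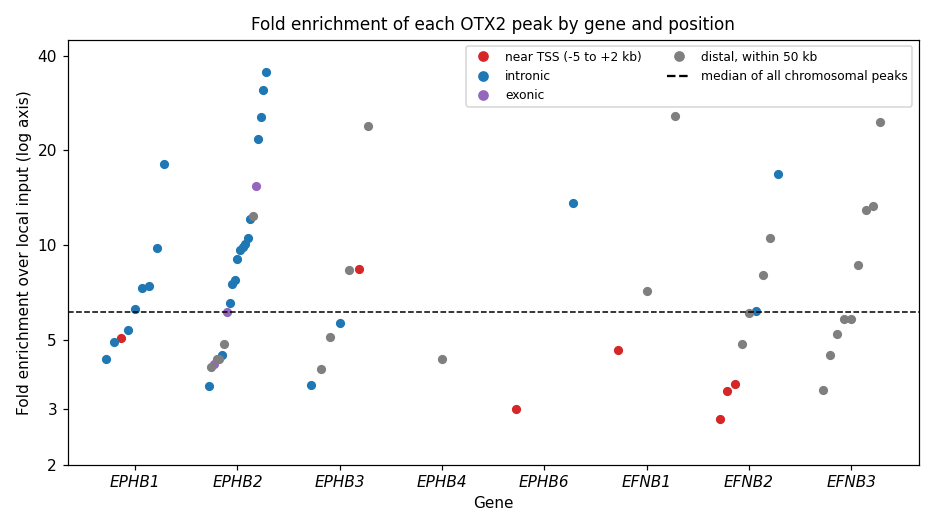
Every point is 1 OTX2 peak, with its fold enrichment over the local input on a log axis and the gene on the x axis. Colours give the position, and the dashed line is the median of the peaks on the chromosomes, 6.10. Only 1 of the 7 peaks near a TSS, that of EPHB3, lies above the line, and the 4 highest points of EPHB2 are intronic.

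EPHB2 had 23 peaks, the most of the 8 genes, and none of them near its TSS. This receptor guides commissural and retinal axons and organises excitatory synapses. Its gene record, chr1:22710839-22921500 (plus strand), spans 211 kb. No peak was called from 50 kb upstream of the TSS to the first summit 53.2 kb inside the gene. From there to 208 kb, 18 summits followed, 15 intronic and 3 in the last exon, exon 16 of the canonical transcript. A gene record with 15 or more summits was found for 6.29% of protein-coding genes, and EPHB2 was the only one of the 8. Per length it stood out less, with 8.54 summits per 100 kb of the record, higher than in 76.4% of protein-coding genes.

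The tallest EPHB2 peak, chr1:22763710-22764755, lay in intron 1 and was 1046 bp long. Its height was 288 fragments (256 to 323), its −log10 q was 252, and its fold of 35.5 was above that of 99.4% of all peaks. The second, with 210 fragments (183 to 240) and a fold of 31.2, and the third, with 207 fragments (180 to 237) and a fold of 25.5, lay in intron 3, at 84.1 and 97.8 kb from the TSS. Their intervals overlapped each other but not that of the tallest peak. A further strong peak in intron 5, at 166 kb, had 146 fragments and a fold of 21.7. Intron 3, which is 78.0 kb long, held 9 of the peaks, and 5 of these lay between 134 and 145 kb from the TSS with 29 to 119 fragments. Intron 1 is similar in length at 70.4 kb and held 2. In the last exon the peak nearest the end of the gene reached 123 fragments and a fold of 15.5. For 17 of the 23 peaks, the 5 downstream of the gene among them, the TSS of LACTBL1 was nearer than that of EPHB2, and the tallest downstream peak, with 133 fragments, was 1507 bp from it. Of the 6 annotated transcript starts of EPHB2, 2 internal ones had a peak in the same window, the first of them 64339 bp inside the gene, and EPHB2 joined the genes with a peak when any transcript start was accepted.

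EPHB1, a receptor that in the visual system steers axons at the optic chiasm, is the longest of the 8 genes and was sparsely bound. Its record, chr3:134795260-135260467 (plus strand), covers 465 kb, and 9 peaks were found at it. The peak near the TSS, chr3:134795023-134795316, was 33 fragments high (22.7 to 46.3), with 5.05 as its fold and 9.77 as its −log10 q. The next summit came 143 kb from the TSS, in intron 2. Intron 3, 154 kb long, held 4 peaks, among them the tallest of the gene with 122 fragments (101 to 146) and a fold of 18.1 at 246 kb from the TSS. The other 3 had 68, 32 and 65 fragments. Introns 5, 9 and 12 held 1 peak each, with folds of 7.43, 6.25 and 5.35. EPHB1 had 1.72 summits per 100 kb of its record, where the median protein-coding gene had 3.44. EPHB1 and EPHB2 were thus both long genes with most peaks in introns, at 1.72 and 8.54 summits per 100 kb.

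EPHB3 had the strongest peak near a TSS. Together with EPHB2 it positions cells along the intestinal crypt and guides axons of the corpus callosum. Its record is chr3:184561785-184582408 (plus strand). Its promoter peak, chr3:184560990-184561780, was 791 bp long and 124 fragments high (103 to 148), with 8.38 as its fold and 51.7 as its −log10 q. The interval did not overlap those of the other peaks near a TSS, which had 19 to 38 fragments. Among the 11367 protein-coding genes with such a peak, EPHB3 stood at the 66.9th percentile of the highest fold near the TSS. The local input under this peak was 10.0 on the scale of the pileup, the highest at the 63 peaks. Inside the gene, intron 1 held a peak of 28 fragments and intron 9 one of 60. The tallest EPHB3 peak, chr3:184589936-184590473, lay downstream of the gene at 28.4 kb. Its height was 161 fragments (137 to 188) and its fold 23.9. No other protein-coding gene reached into the EPHB3 window, and all 7 peaks had the EPHB3 TSS as their nearest.

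EPHB4 and EPHB6, both on chromosome 7, had few peaks. EPHB4 is the receptor of venous endothelium that pairs with EFNB2 on arteries, and EPHB6 is a member without kinase activity. The EPHB4 record, chr7:100802565-100827523 (minus strand), held 0 peaks. The only peak in its window had 34 fragments (23.5 to 47.5) and a fold of 4.33, lay 47.0 kb upstream and was 554 bp from the TSS of the neighbouring gene SRRT. None of the 9 EPHB4 transcript starts had a peak. At EPHB6, chr7:142855061-142871094 (plus strand), 2 peaks were called. The one near its TSS was the lowest of the 63, at 19 fragments (11.4 to 29.7), with 3.00 as its fold and 2.41 as its −log10 q. The second, chr7:142857195-142857651, was much taller, with 91 fragments (73.3 to 112) and a fold of 13.6. Its summit lay 2388 bp downstream of the TSS in intron 1, so that it just missed the window. On chromosome 7 peaks were called at 27.3 per Mb against 49.1 per Mb on the other autosomes, and 37.4% of its protein-coding genes had a peak near the TSS. The part of this in the counts at EPHB4 and EPHB6 was not tested.

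EFNB2, the ligand of arterial endothelium, had the most peaks near the TSS of the 3 ligand genes, though by fold its strongest one, 3.61, stood below the single promoter peak of EFNB1, 4.62. Its record is chr13:106489745-106535662 (minus strand). There were 3 peaks near the TSS, with 38, 30 and 36 fragments at 167, 932 and 3935 bp upstream and folds of 3.61, 2.79 and 3.43. These were among the lowest folds of the 63 peaks, and the intervals of the 3 heights overlapped. Intron 1 held the tallest EFNB2 peak, chr13:106528823-106529946, which was 1124 bp long with 165 fragments (141 to 192) and a fold of 16.8, and a second one of 68 fragments. Upstream, 3 peaks between 32.7 and 36.8 kb, with 61, 98 and 41 fragments, lay nearer to the TSS of ARGLU1, the first of them 248 bp from it. All 9 EFNB2 peaks had a local input above the floor, from 5.00 to 7.25.

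EFNB1, whose loss of function disturbs craniofacial boundaries, had 3 peaks at its record, chrX:68829021-68842160 (plus strand). The promoter peak, chrX:68828790-68829067, had 30 fragments (20.2 to 42.8) and a fold of 4.62. Its summit lay 72 bp upstream of the record, which itself held no summit. Downstream, a peak 18.1 kb from the TSS had 47 fragments, and the third, chrX:68876693-68877255, at 47.9 kb, reached 173 fragments (148 to 201), and its fold of 25.7 was above that of 97.1% of all peaks. All 3 had the EFNB1 TSS as the nearest protein-coding one. Chromosome X had 20.0 peaks per Mb, and 30.1% of its protein-coding genes had a peak near the TSS.

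EFNB3, a midline ligand that keeps corticospinal axons from crossing back, had 9 peaks around it and none in it. The gene is short, 6.17 kb at chr17:7705202-7711372 (plus strand). The tallest peak had 165 fragments (141 to 192) and a fold of 24.5, with its summit 9428 bp upstream of the TSS and therefore outside the window. A smaller peak of 38 fragments lay 8607 bp upstream. Farther upstream 5 more peaks had 22 to 107 fragments. Downstream, a peak of 38 fragments lay 378 bp from the TSS of DNAH2 and one of 57 fragments 25.4 kb from EFNB3. For 8 of the 9 peaks the nearest protein-coding TSS was that of another gene, so the assignment to EFNB3 rests on distance alone.

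**Figure D3:**
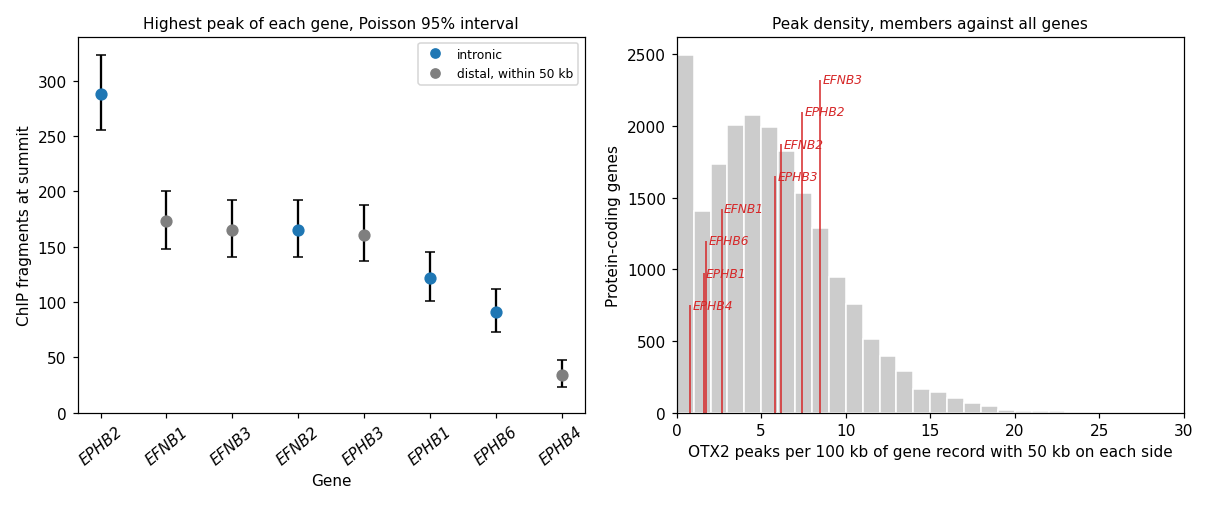
Left, the tallest peak of each gene in ChIP fragments with its Poisson 95% interval, coloured by position. EPHB2 at 288 stands above the rest, and EFNB1, EFNB2, EFNB3 and EPHB3 lie together between 161 and 173. Right, a histogram of peaks per 100 kb over all protein-coding genes, with the 8 genes as red lines running from EPHB4 at 0.800 to EFNB3 at 8.48.

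Ordered by the tallest peak, EPHB2 (288 fragments) was followed by EFNB1 (173), EFNB2 and EFNB3 (165 each), EPHB3 (161), EPHB1 (122), EPHB6 (91) and EPHB4 (34). The intervals of the 4 genes from 161 to 173 fragments overlapped one another, and so did those of EPHB3 and EPHB1 and of EPHB1 and EPHB6. EPHB2 above and EPHB4 below did not overlap their neighbours in this order. All 8 tallest peaks were also the highest of their gene by fold enrichment. None of them lay near the TSS, where EPHB2, EPHB4 and EFNB3 had no peak at all.

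Set per length, with 50 kb on either side, the order was another one. EFNB3 had 8.48 peaks per 100 kb, EPHB2 7.40, EFNB2 6.17 and EPHB3 5.80, all above the protein-coding median of 5.12. EFNB1 had 2.65, EPHB6 1.72, EPHB1 1.59 and EPHB4 0.800. These values stood at percentiles from 78.9 for EFNB3 to 7.98 for EPHB4 among protein-coding genes. The order depended on the flanks. With the gene record alone, counting every peak that overlapped it, EFNB3 dropped to percentile 15.3 and EFNB2 to 48.1. By this count EFNB1 stood at 66.4 and EPHB6 at 59.4, so that EFNB1 and EPHB6 joined EPHB2 and EPHB3 above the median. Counting summits inside the record instead, EFNB1, with 0 summits, stood at 18.7, EFNB2 at 55.2 and EPHB6 at 66.0. With 100 kb on each side EPHB3 stood at 32.0 and EFNB3 at 51.7. Within its own chromosome EFNB1 moved from percentile 24.1 to 59.2 and EPHB6 from 15.8 to 33.4, whereas EPHB1 fell from 14.8 to 5.92. At least 1 peak in the extended record was the rule, with 94.1% of protein-coding genes and all 8 members. A summit inside the gene record was present for 5 of the 8 genes and for 62.7% of protein-coding genes.

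Genes that act with EPHB receptors and ephrin B ligands were looked at in the same window. Of 29 such genes 22 (75.9%) had a peak near the TSS, against 57.2% of all protein-coding genes. With a fold of at least 5 these were 16 of the 29, against 38.5% of all protein-coding genes. Forward signalling partners, among them the exchange factors and adaptors that link the receptors to the actin cytoskeleton, had a peak in 12 of 17 cases. Reverse signalling partners, such as kinases and PDZ proteins that bind ephrin B, had one in 8 of 9, and the proteases that cleave the family in 2 of 3. The highest folds were found at ITSN1, an exchange factor for CDC42 (18.9, 153 fragments, 165 bp upstream of the TSS), at SDC2, the syndecan that EPHB2 phosphorylates in dendritic spines (15.5, 311 fragments, 210 bp upstream), and at FYN, a SRC family kinase (12.9, 98 fragments, 2600 bp upstream). These folds stood at percentiles 94.9, 90.8 and 85.7 among the 11367 protein-coding genes with a peak near the TSS. All 3 were higher than 8.38 at EPHB3, the highest fold near the TSS of the 8 receptors and ligands. They were picked as the highest of 22 partners with a peak, whereas 5 receptors and ligands had one, so this order favours the partners beforehand. The list was compiled from general knowledge of the pathway, but with earlier results of these data known, and its share was not tested.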

How the data were processed

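OTX2-bound DNA was measured with 1 ChIP and 1 input library. Reads were aligned by the authors with bowtie2 2.2.4 (GRCh38), and MACS2 2.1.0.20140616 called the peaks (q-value cutoff 0.05, 1 fragment per position). The methods state masking of blacklisted regions. The deposited pileup is a scaled coverage signal. Its values are whole multiples of 0.735 within 0.02, and 1 such step was taken as 1 ChIP fragment. If a step stood for more than 1 fragment, the heights would be too low and the intervals too wide. The deposited fold enrichment is a ratio. Significance was deposited as the −log10 q-value of each peak. Local input was computed here from pileup and fold. Its floor was set at the 1st percentile over all peaks, 3.99, and a peak up to 0.05 above that value counted as at the floor.

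Gene records were GENCODE release 44. The annotation at hand is placed on GRCh37, and the GRCh38 position it records for each exon was used without conversion. As TSS served the outermost 5′ base of a record. Peaks not near it were classed by their summit, and intron numbers follow the canonical transcript. Promoters came from RefSeq (GRCh38.p14). The member genes, partner list and settings were chosen with earlier results of these data known. Named are all members, the 3 partners with the highest fold near the TSS, and some neighbours with a nearer TSS. Counting was checked on planted peaks. With 1 library, no test was made. Depth limits weak peaks: the lowest listed had 15 fragments. Duplicates were 27.9% of ChIP and 30.3% of input fragments, and the ChIP library was 2.72 times as deep. Computations used Python 3.11.15 with scipy 1.17.1, numpy 2.4.6, pandas 2.3.3 and, for plots, matplotlib 3.10.9.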

Additional observations from a re-analysis of the deposited data

How the results depend on the processing

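No paired analysis was possible because only 1 library of each kind was sequenced. The number of members with a peak near the TSS, 5 in the setting reported, dropped to 2 when a 5-fold enrichment was required and lay between 4 and 6 under the other 5 alternatives. EPHB6 was lost when −log10 q had to reach 5, and EPHB2 was gained when every transcript start was accepted. The share of protein-coding genes counted this way became 52.0% for −log10 q values from 5 up, 38.5% for folds from 5 up, 56.3% for summits inside the window, 66.6% for every transcript start, 46.9% for 1 kb on either side and 58.5% for the canonical transcript start, which was chosen after seeing the data. Peaks at the 8 genes fell from 63 to 33 when the flanks were left out, by construction. With the TAAT core in place of the full motifs, 3 promoters in place of 0 held a match. The count of partners lay between 16 and 26 (22 in the setting reported), and that of members above the median density between 3 and 5 (4), with different members. With the gene record alone and every overlapping peak counted, EFNB2 and EFNB3 left and EFNB1 and EPHB6 entered. With summits inside the record counted instead, EFNB2 stayed above the median and EFNB1 did not enter. The tallest peak of each of the 8 genes was the same by height and by fold. Of 48 peak counts of single genes under other settings, 33 stayed within 1.5 times and 15 did not. The shallower input and its floor of 3.99 limit the precision of the folds, since 32.9% of all peaks were set against that floor.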
